A study of Mus musculus with 6 samples.

Results

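Iron and heme handling was followed through 10 genes, taken by their symbols from an expression table of 15824 genes: the scavenger receptor gene Cd163, the heme oxygenase gene Hmox1, the import and transport genes Tfrc, Slc11a1 and Slc11a2, the storage genes Fth1, Ftl1 and Ncoa4, the export gene Slc40a1 and the iron sensor gene Ireb2. All 10 symbols were found, and all 10 had enough counts to be tested. The values come from RNA sequencing of cells labelled as alveolar macrophages, the phagocytes that live in the airspaces of the lung. By the labels, the cells were sorted by flow cytometry from mice aged 8 weeks. There were 3 libraries from Men1 knockout (KO) mice and 3 from wild-type (WT) mice. Men1 encodes menin, a scaffold protein of histone methyltransferase complexes. The labels do not give the strain, the sex, the deleted part of Men1, any Cre driver, or whether each library is a mouse of its own. The spread behind every p-value is thus that between these 3 libraries a group, and it may be technical.

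Macrophages take up iron as transferrin-bound iron, as heme from hemoglobin, and from engulfed red cells. Heme oxygenase opens the heme ring and frees the iron, which is then stored inside ferritin shells or exported through ferroportin. The balance is set largely after transcription. When iron is scarce, the iron regulatory proteins IRP1 and IRP2 bind a hairpin called the iron-responsive element. A hairpin in the leader of a ferritin or ferroportin mRNA then blocks its translation, whereas hairpins behind the coding region of the transferrin receptor mRNA protect it from decay. The RNA of a ferritin gene is thus no direct measure of its protein.

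Iron-responsive elements of the 2 ferritin genes and of Tfrc are shown because they put the storage and import genes under the same sensor with opposite outcome. They were found in GENCODE M21 transcripts (build GRCm38) by searching the sense strand for a C, 5 bases, the loop CAGTGN and 5 more bases, where the 5 bases on either side of the loop had to pair, G with T included. Each is printed with 29 bases, and the capitals mark the loop. The Fth1 element lies in the 5′ UTR at chr19:9982732-9982760 on the plus strand, and the Ftl1 element in the 5′ UTR at chr7:45459779-45459807 on the minus strand. The 4 elements found in Tfrc lie in the 3′ UTR on the plus strand, at chr16:32631219-32631247, chr16:32631598-32631626, chr16:32631663-32631691 and chr16:32631710-32631738. An element with other letters would have been missed by this search.
Fth1 element: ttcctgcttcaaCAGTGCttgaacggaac
Ftl1 element: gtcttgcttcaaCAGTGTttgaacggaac
Tfrc element 1: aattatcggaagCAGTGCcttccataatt
Tfrc element 2: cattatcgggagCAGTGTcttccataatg
Tfrc element 3: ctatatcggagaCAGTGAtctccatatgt
Tfrc element 4: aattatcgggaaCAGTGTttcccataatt
The 2 ferritin elements have the same 5 bases on each side of the loop. Slc40a1 held 1 match in its 5′ UTR, and the UTRs of the other 6 genes held none, which says only that these letters were not found there. Among all protein-coding genes, 0.148% of those with a 5′ UTR and 0.595% of those with a 3′ UTR held a match. In consecutive windows of 300 bases along the longest UTR of each gene, the shares were 0.0908% for 5′ UTRs and 0.106% for 3′ UTRs.

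The libraries held 19955242 to 20151990 counts each. Libraries of the same group differed by a chi-square of 1.37 to 1.599 per gene, against 61.9 to 64.8 between groups. Men1 itself had 150, 149 and 165 counts in KO libraries 1, 2 and 3, against 639, 594 and 603 counts in WT libraries 1, 2 and 3. The gene counts do not separate the deleted part from the rest of the transcript. Ddx3y, Eif2s3y, Kdm5d and Uty, which lie on the Y chromosome, had no more than 2 counts in any KO library, against 283 to 1530 counts in WT libraries, so a difference in sex and a difference in genotype cannot be told apart. Of 13 listed alveolar macrophage markers in the table, 5 stayed under 1 CPM (counts scaled to library size with TMM factors) in every library, namely Fabp1, Plet1, Ear1, Ear2 and Ear6. The defining surface marker Siglecf averaged 1.34 ± 0.154 CPM in KO and 2.06 ± 0.381 CPM in WT (SD, n = 3 each). General macrophage genes summed to 14450 to 14585 CPM in KO and 9598 to 9739 CPM in WT. Siglecf and the 5 genes under 1 CPM thus do not bear out the label of alveolar macrophages. The 13 alveolar macrophage markers together summed to 1390 to 1427 CPM in KO and 464 to 476 CPM in WT. Of 8 tested, 4 were higher and 4 lower, beside 34.4% and 34.9% of all genes tested. Marco alone made up 1118 to 1162 CPM of the sum of the 13 markers in KO and 170 to 175 CPM in WT. Trim29 (3.80-fold), Chil3 (2.01-fold) and Mrc1 (1.37-fold) were higher in KO as well, while Siglecf, Atp6v0d2, Pparg and Itgax were lower. The part of these differences in the results was not tested.

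Of the 10 iron and heme genes, 6 were higher in KO than in WT, 2 were lower and 2 did not pass an adjusted p of 0.05 in the quasi-likelihood test of edgeR, adjusted after Benjamini and Hochberg over all genes tested. The largest changes were in uptake and export: Tfrc was 2.04-fold higher and the scarce Cd163 2.19-fold higher, and Slc40a1 was 1.59-fold lower. Over all 11817 genes tested, 69.2% passed, 34.4% higher and 34.9% lower in KO. The KO and WT libraries did not overlap for 8 of the 10 members and for 71.2% of all genes. A share of 8 of 10 is thus near that of all genes. Tfrc and Cd163 were the members among the 8.2% of genes that passed with at least a 2-fold change. The median absolute log2 fold change was 0.21 for the 10 members and 0.24 for all genes tested.

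**Figure D1:**
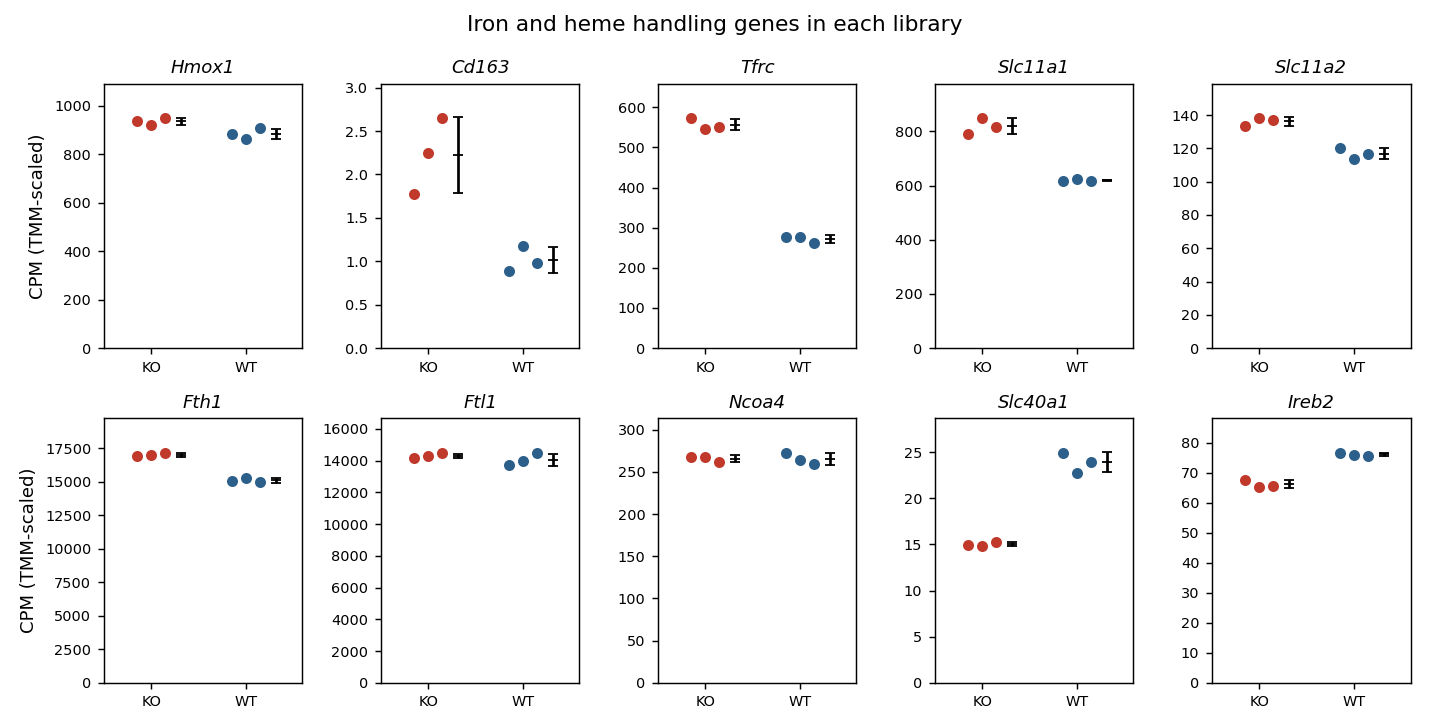
Level of each of the 10 genes in CPM (vertical axes, each starting at 0) in the 3 KO libraries and the 3 WT libraries, with the mean and SD (n = 3) beside the points. KO and WT libraries do not overlap in 8 panels and overlap for Ftl1 and Ncoa4. On the TPM scale, where the median log2 fold change of all genes is -0.12, the order of the Hmox1 means turns round.

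Among the import genes, Tfrc, which encodes the transferrin receptor that brings iron-loaded transferrin into the cell, had the smallest p of the 10. Its counts were 11293, 10697 and 10826 in KO libraries 1, 2 and 3, and 5668, 5650 and 5368 in WT libraries 1, 2 and 3. Every KO library lay well above every WT library. The mean was 557 ± 14.2 CPM in KO and 272 ± 9.30 CPM in WT (SD, n = 3 each), a log2 fold change of 1.03 (SE 0.0235, edgeR adjusted p = 8.17e-30). A larger absolute log2 fold change was found for 7.85% of all genes tested. Tfrc (gene ID 22042) lies on chromosome 16 from 32608896 to 32632794 in GRCm38.p6.

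Slc11a1 and Slc11a2 encode related proton-driven carriers of divalent metals, the first in phagosomes of macrophages, where it pumps metal out of the compartment that holds engulfed microbes, and the second in endosomes, where it passes transferrin-delivered iron to the cytosol. Slc11a1 (gene ID 18173) lies on chromosome 1 from 74375014 to 74386057 and Slc11a2 (gene ID 18174) on chromosome 15 from 100387898 to 100424209. Slc11a1 had 15605, 16626 and 16037 counts in KO libraries 1, 2 and 3, and 12573, 12680 and 12688 counts in WT libraries 1, 2 and 3. The KO libraries were all higher, with means of 819 ± 28.7 CPM in KO and 620 ± 3.10 CPM in WT, and the log2 fold change was 0.40 (SE 0.0206, edgeR adjusted p = 4.46e-19). Slc11a2 had 2626, 2704 and 2691 counts in KO and 2446, 2316 and 2395 counts in WT, in the same order of libraries. It too was higher in each KO library, at 136 ± 2.55 CPM in KO and 117 ± 3.12 CPM in WT, by a log2 fold change of 0.22 (SE 0.0286, edgeR adjusted p = 1.91e-08). The count ratio of Slc11a1 to Slc11a2 was 5.94, 6.15 and 5.96 in KO libraries and 5.14, 5.48 and 5.30 in WT libraries, higher in every KO library. The Slc11a2 mRNA is known to be made in forms with and without an iron-responsive element, which counts per gene do not separate. A predicted gene on the opposite strand, Gm5475, overlaps Slc11a2, and the use of strand in counting is not stated.

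The gene of the exporter itself went the other way. Slc40a1 (gene ID 53945) encodes ferroportin, the known iron exporter of mammalian cells, and lies on chromosome 1 from 45908070 to 45926532 in GRCm38.p6. It had 295, 291 and 300 counts in KO libraries 1, 2 and 3, and 508, 464 and 492 counts in WT libraries 1, 2 and 3. All 3 KO libraries were lower, and the mean was 15.04 ± 0.217 CPM in KO and 23.9 ± 1.07 CPM in WT (SD, n = 3 each), a log2 fold change of -0.67 (SE 0.0610, edgeR adjusted p = 5.26e-12). A larger absolute log2 fold change was found for 15.2% of all genes tested. The ratio of Slc40a1 to Tfrc counts within a library, which no library scaling can change, was 0.0261, 0.0272 and 0.0277 in KO and 0.0896, 0.0821 and 0.0917 in WT. Its mean was 3.25-fold lower in KO, and the groups did not overlap. Fibroblast markers were lower in KO as well, 9 of 9, beside 34.9% of all genes tested. Their summed levels were 15.8 to 18.1 CPM in KO and 83.7 to 86.3 CPM in WT, and none of the 9 was at 0 in any library. Their part in the Slc40a1 difference was not tested, and in such bulk samples fewer cells of a type and less RNA per cell cannot be told apart.

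Ferritin transcripts were the most abundant of the set. Fth1 encodes the heavy chain, which oxidises iron for storage, and Ftl1 the light chain, which helps to build the mineral core. Fth1 (gene ID 14319) lies on chromosome 19 from 9980600 to 9985111, and Ftl1 (gene ID 14325) on chromosome 7 from 45457944 to 45459886, where the predicted genes Gm22133 and Gm10252 overlap it. Per length, Fth1 averaged 27337 ± 161 FPKM (fragments scaled by gene length and library depth) in KO and 25332 ± 315 FPKM in WT (SD, n = 3 each), which ranked it 1 of all 15824 genes in every KO library and 1 or 2 in every WT library. Ftl1 averaged 21946 ± 152 FPKM in KO and 22519 ± 512 FPKM in WT, which gave rank 3 in all 6 libraries.

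Fth1 had 332933, 333134 and 336967 counts in KO libraries 1, 2 and 3, and 307260, 310902 and 307006 counts in WT libraries 1, 2 and 3. This made up 1.66% to 1.68% of all counts in KO and 1.52% to 1.56% in WT, and the groups did not overlap. Its log2 fold change was 0.17 (SE 0.0133, edgeR adjusted p = 5.70e-14). Ftl1 had 279407, 279255 and 283511 counts in KO and 279679, 283814 and 296971 counts in WT, and the groups overlapped. The log2 fold change of Ftl1 was 0.03, with a 95% interval of -0.01 to 0.06 (edgeR adjusted p = 0.142); without WT replicate 3, which had the highest count, it was 0.05 and passed (edgeR adjusted p = 0.00447), and its sign turned negative without library scaling and on the FPKM and TPM scales. On log2(TPM + 1), Ftl1 passed as lower in KO, at -0.12 (limma adjusted p = 0.00964). In these settings the median log2 fold change of all genes was itself below 0. It was -0.056 without library scaling, -0.048 on log2(FPKM + 1) and -0.12 on log2(TPM + 1).

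Within libraries, the count ratio of Fth1 to Ftl1 was 1.19, 1.19 and 1.19 in KO and 1.099, 1.095 and 1.03 in WT, so heavy-chain RNA was higher relative to light-chain RNA in every KO library. Ftl1 counts were not whole numbers, within a tolerance of 1e-06, in any of the 6 libraries, and those of the other 9 genes were whole in all of them. RefSeq lists several pseudogene copies of both ferritin genes in GRCm38.p6, and whether reads shared with such copies bear on either level was not tested. Ncoa4 (gene ID 27057, chromosome 14 from 32159879 to 32179855) encodes the receptor that carries ferritin to the lysosome for iron release. It had 5275, 5248 and 5130 counts in KO and 5552, 5371 and 5310 counts in WT, and the scaled levels overlapped at 261 to 268 CPM in KO and 259 to 272 CPM in WT. The log2 fold change of Ncoa4 was 0.00, with a 95% interval of -0.04 to 0.05 (edgeR adjusted p = 0.901), and its sign turned under several alternative settings. It passed below 0 without library scaling, at -0.053, and on log2(TPM + 1), at -0.13. The median log2 fold change of all genes was near these values, at -0.056 and -0.12.

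Hmox1, the inducible heme oxygenase gene, (gene ID 15368, chromosome 8 from 75093618 to 75100593), was among the abundant transcripts and differed by a few percent. It had 18449, 18047 and 18643 counts in KO libraries 1, 2 and 3, and 18010, 17570 and 18611 counts in WT libraries 1, 2 and 3. After scaling, the lowest KO library had 922 CPM and the highest WT library 907 CPM, so the groups came close without overlapping. The log2 fold change was 0.08 (SE 0.0191, edgeR adjusted p = 0.000318), or 5.79% with a 95% interval of 2.99% to 8.67%. This call was lost without library scaling, at 0.024 (edgeR adjusted p = 0.255), and on the TPM scale the sign turned, at -0.06 (limma adjusted p = 0.126). The median log2 fold change of all genes was -0.056 and -0.12 in these settings, and Hmox1 lay above it in both.

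Cd163 (gene ID 93671, chromosome 6 from 124304636 to 124330529), the receptor for haptoglobin-hemoglobin complexes, was the scarcest member. It had 35, 44 and 52 counts in KO libraries 1, 2 and 3, and 18, 24 and 20 counts in WT libraries 1, 2 and 3. In these scarce counts the groups did not overlap at 1.78 to 2.65 CPM in KO and 0.883 to 1.18 CPM in WT, and the log2 fold change was 1.13 with a 95% interval of 0.69 to 1.57 (edgeR adjusted p = 2.13e-05). Cd163 also marks macrophages of the lung tissue. Beside 34.4% of all genes higher and 34.9% lower, of 10 tested interstitial macrophage markers 6 were higher and 2 lower in KO. Their list summed to 2069 to 2109 CPM in KO and 1238 to 1252 CPM in WT, with Lyve1 and Timd4 at or near 0 in both groups, and their part in the Cd163 difference was not tested.

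Ireb2 (gene ID 64602, chromosome 9 from 54862658 to 54912534) encodes IRP2, the sensor that is degraded when iron is plentiful. Its counts were 1334, 1281 and 1290 in KO libraries 1, 2 and 3, and 1562, 1547 and 1553 in WT libraries 1, 2 and 3. All KO libraries were lower, at 66.3 ± 1.24 CPM in KO and 76.1 ± 0.472 CPM in WT (SD, n = 3 each), with a log2 fold change of -0.20 (SE 0.0339, edgeR adjusted p = 3.24e-06). Aco1, which encodes IRP1 when it lacks its iron-sulfur cluster, went the other way at 88.3 ± 0.254 CPM in KO and 79.4 ± 2.61 CPM in WT, a log2 fold change of 0.15 (edgeR adjusted p = 0.000102). On the TPM scale Aco1 did not pass, at 0.01 (limma adjusted p = 0.726). Fbxl5, whose product targets IRP2 for degradation, was lower at a log2 fold change of -0.19 (edgeR adjusted p = 6.18e-05).

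**Figure D2:**
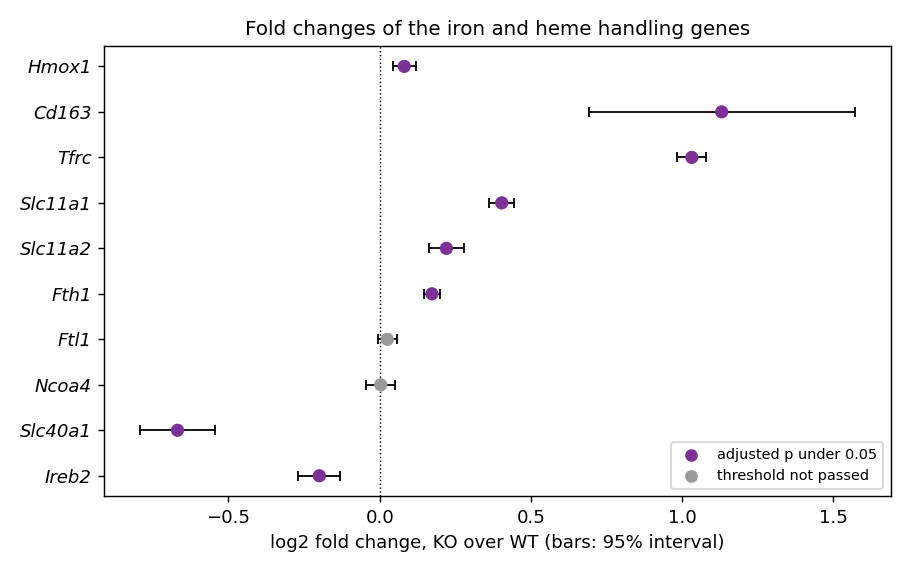
Log2 fold change of KO over WT for each gene (horizontal axis), with 95% intervals from edgeR and colour for the adjusted p threshold of 0.05. Tfrc and Cd163 lie at 1.03 and 1.13 and Slc40a1 at -0.67, while Ftl1 and Ncoa4 have intervals that include 0. The signs of Hmox1, Ftl1 and Ncoa4 turn on the TPM scale, where the median of all genes is -0.12.

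The biological coefficient of variation estimated from the libraries was 1.66%. With an assumed value of 0.1 as a fraction, and likewise in edgeR's test against a change of 1.2-fold, 4 of the 10 members passed. These were Tfrc, Slc11a1, Cd163 and Slc40a1, and the calls of Hmox1, Slc11a2, Fth1 and Ireb2 were lost. Of all 11817 genes tested, 4406 passed with the assumed value and 3771 in the 1.2-fold test.

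**Figure D3:**
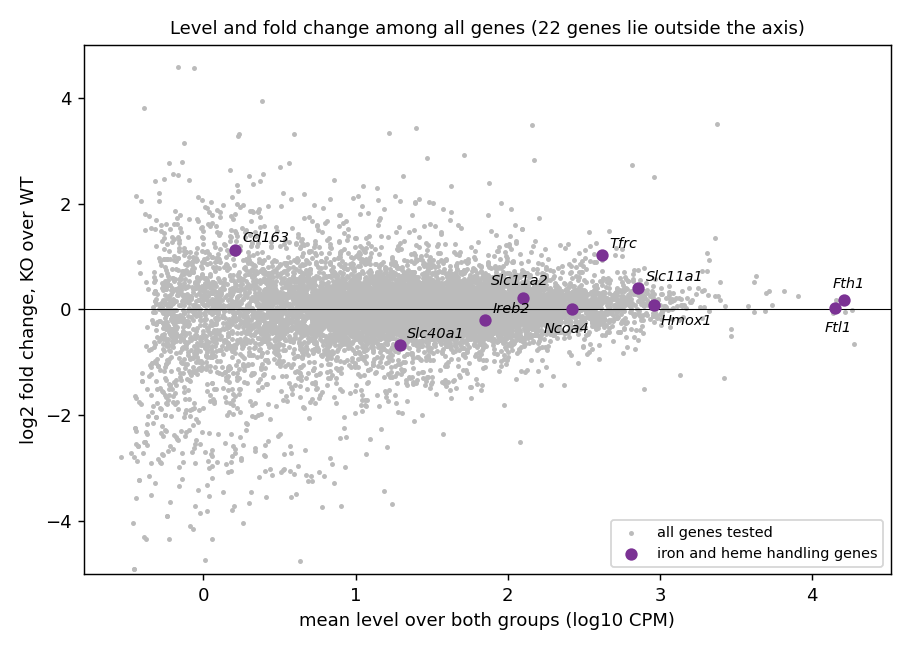
Log2 fold change of KO over WT (vertical axis) against mean CPM on a log10 axis for all genes tested (grey), with the 10 iron and heme genes in purple; 22 genes lie beyond the vertical axis. Fth1 and Ftl1 sit at the far right near 0, Hmox1 lies near 0 at a lower abundance, and Tfrc lies at 1.03. On the TPM scale, where the median of all genes is -0.12, Hmox1 and Ftl1 turn below 0.

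The order of levels per length was nearly the same in both groups. In KO it ran from Fth1 and Ftl1 over Hmox1 (737 FPKM), Slc11a1 (397 FPKM), Tfrc (119 FPKM), Ncoa4 (82.9 FPKM), Slc11a2 (41.8 FPKM), Ireb2 (12.1 FPKM) and Slc40a1 (4.83 FPKM) to Cd163 (0.553 FPKM). In WT, Ncoa4 at 86.1 FPKM stood before Tfrc at 60.6 FPKM, and the other genes kept their places. No neighbours in either order overlapped between libraries, and TPM gave the same places. The authors' deposited table for a heat map lists 8 of the 10 members, all but Ftl1 and Ncoa4. It holds 6784 genes, beside 15824 genes in the expression table, and its values come from the same 6 libraries.

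Beyond the members, 9 lists of iron and heme genes were followed, with 91 genes tested, of which 37 were higher, 31 lower and 23 did not pass. This was 74.7% passing with a median log2 fold change of 0.00, beside 69.2% and a median of 0.00 over all genes tested, and the 10 members had a median of 0.13. With the assumed coefficient of variation of 0.1 and in the 1.2-fold test, 29 and 25 of the 91 list genes passed. Of all 11817 genes tested, 4406 and 3771 passed in these settings. The share of list genes was thus a little below that of all genes in both. In heme breakdown and transport, 8 of 12 tested genes were higher and 3 lower, beside 34.4% and 34.9% of all genes tested. The median log2 fold change of this list was 0.24. Blvrb and Blvra, the biliverdin reductase genes that act after heme oxygenase, were both higher, with Blvrb at 315 ± 11.2 CPM in KO and 197 ± 1.45 CPM in WT, and Blvra 1.28-fold higher. Hp, which encodes the haptoglobin that binds free hemoglobin, averaged 260 ± 5.59 CPM in KO and 36.8 ± 0.441 CPM in WT, a 7.06-fold difference (edgeR adjusted p = 1.73e-39). Pgrmc1, which encodes a heme-binding membrane protein, went the other way at 59.8 ± 1.09 CPM in KO and 83.5 ± 1.84 CPM in WT. In heme synthesis, 7 of 12 genes were higher and 1 lower, with a median of 0.17, and Alas1, the rate-limiting enzyme outside red cells, 1.16-fold higher and Fech, which inserts the iron, 1.16-fold lower. Slc25a39, a mitochondrial carrier gene, was 1.26-fold higher, and Urod, an enzyme gene of the middle of the pathway, 1.22-fold higher. The Urod call was lost on the TPM scale (limma adjusted p = 0.122).

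The list of iron reduction and other import had 15 genes in the table, of which 7 were tested. All 7 passed, beside 69.2% of all genes tested. Of the 7, 3 were higher and 4 lower, with a median log2 fold change of -0.17. Lcn2, whose product lipocalin 2 captures bacterial siderophores, averaged 51.6 ± 0.981 CPM in KO and 7.07 ± 0.0535 CPM in WT, a 7.30-fold difference. Cp, which encodes the ferroxidase ceruloplasmin that assists ferroportin, was 5.72-fold higher (edgeR adjusted p = 1.12e-27). The metal importer gene Slc39a14 was 1.48-fold lower, and Steap3, which encodes an endosomal ferric reductase that works with Slc11a2, was higher at 94.9 ± 3.24 CPM in KO and 78.9 ± 1.45 CPM in WT. Neutrophil markers were also higher in KO, 5 of 5 tested, beside 34.4% of all genes tested. Their summed levels were 191 to 194 CPM in KO and 77.1 to 80.5 CPM in WT. In KO most of the sum came from S100a8 (71.0 CPM), Csf3r (63.3 CPM) and Mmp9 (53.2 CPM), while S100a9 averaged 3.14 CPM and Ngp 0.934 CPM. Retnlg, Camp and Cxcr2 stayed under 1 CPM in every library. The part of the neutrophil markers in the Lcn2 and Hp differences was not tested. All 10 red cell markers in the table, globin genes included, stayed under 1 CPM in every library, with summed levels of no more than 1.62 CPM in any library.

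**Figure D4:**
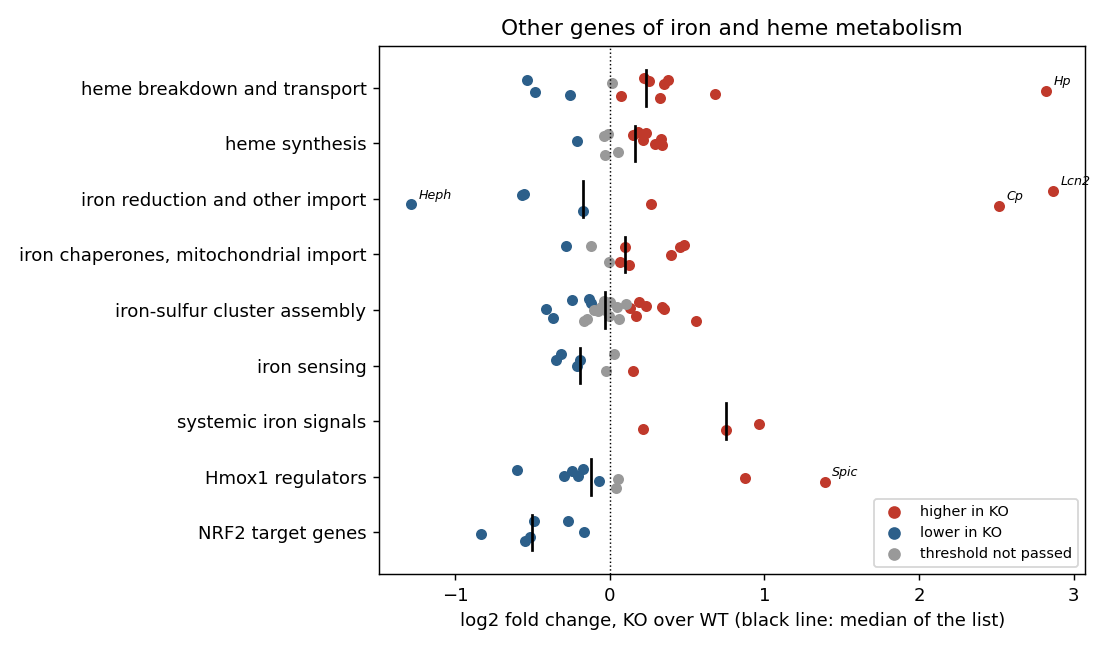
Log2 fold change of KO over WT (horizontal axis) for each tested gene of the 9 lists, coloured by call, with a black line at the median of each list. All 6 genes of the NRF2 target list lie below 0, while Hp, Lcn2 and Cp stand apart between 2.5 and 2.9.

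Of the regulators of Hmox1, 6 of 10 were lower and 2 higher, beside 34.9% and 34.4% of all genes tested. Their median log2 fold change was -0.12. Nfe2l2, which encodes the activator NRF2, was lower at 236 ± 2.68 CPM in KO and 272 ± 2.58 CPM in WT (edgeR adjusted p = 5.15e-10). Spic, the transcription factor gene of iron-recycling macrophages of the spleen, averaged 3.22 ± 0.351 CPM in KO and 1.23 ± 0.174 CPM in WT, and Nr1h3, which encodes LXRα, was 1.83-fold higher. Cul3, whose product helps to degrade NRF2, was 1.19-fold lower. The part of the higher interstitial macrophage markers in the Spic difference was not tested. All 6 genes of the NRF2 target list were lower, beside 34.9% of all genes tested. The median log2 fold change of the 6 was -0.50. Among them Slc7a11, the cystine transporter gene, had 239 ± 2.41 CPM in KO and 426 ± 8.51 CPM in WT, and Txnrd1 and Gclc were 1.43-fold and 1.46-fold lower. Srxn1, the sulfiredoxin gene, had 346 ± 5.31 CPM in KO and 486 ± 8.52 CPM in WT. Hmox1, often counted among NRF2 targets, thus did not share the direction of these 6 genes on the count scale. On the TPM scale, where its own sign turns at -0.06, it lay above the median of all genes. The 6 listed genes are a chosen part of the NRF2 targets, and their direction does not stand for all such targets.

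Over all genes tested, 34.4% were higher and 34.9% lower. In iron sensing, 1 of 7 genes was higher and 4 were lower, at a median of -0.19, with Hif1a 1.27-fold lower. Of the chaperone and mitochondrial import list, 6 of 9 genes were higher and 1 lower, at a median of 0.10, led by Abcb8 at 1.40-fold. The cytosolic iron chaperone gene Pcbp1 was 1.07-fold higher, with a sign that turned on the TPM scale. In iron-sulfur cluster assembly, 7 of 25 genes were higher, 6 lower and 12 did not pass, with a median of -0.03, and the scaffold gene Iscu 1.27-fold higher and the chaperone gene Hspa9 1.18-fold lower. Nfu1, a cluster carrier gene, was 1.26-fold higher, and Fdxr, the ferredoxin reductase gene, 1.47-fold higher. Of 10 listed genes of systemic iron signals, 5 were in the table and 3 were tested. All 3 were higher, at a median of 0.75. Hfe, the gene mutated in hereditary hemochromatosis, was at 67.3 ± 1.69 CPM in KO and 39.9 ± 1.10 CPM in WT (edgeR adjusted p = 8.86e-19). The others were Neo1 at 1.16-fold and the scarce Bmp2 at 1.95-fold. Bmp2 did not pass without KO replicate 2 (log2 fold change 0.68, edgeR adjusted p = 0.109), without WT replicate 3 (0.80, edgeR adjusted p = 0.0552) or with DESeq2 (adjusted p = 0.0912), and Neo1 did not pass on the TPM scale (0.06, limma adjusted p = 0.104). The hepcidin genes Hamp and Hamp2 were on this list, but the expression table held no gene under these symbols.

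Genes that carry the iron-responsive element letters were called in both directions. With a match in the 5′ UTR, 23 genes were tested, the ferritin genes and Slc40a1 among them, and 7 were higher and 12 lower in KO. With a match in the 3′ UTR, 90 genes including Tfrc were tested, and 32 were higher and 31 lower. Without the members, 6 were higher and 11 lower of 20 genes with a 5′ match, and 31 and 31 of 89 with a 3′ match. The shares passing, members included, were 82.6% and 70% in these sets, beside 69.2% of all genes. Over all genes tested, 34.4% were higher and 34.9% lower.

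On the TPM scale the median log2 fold change of all genes was -0.12, and 2213 genes were higher and 5344 lower in KO, against 4060 and 4119 from counts. Relative to that median, Hmox1 was at 0.06, Fth1 at 0.15, Slc11a2 at 0.18, Ftl1 at 0.01 and Ncoa4 at -0.01. Slc11a2 at 0.058 and Fth1 at 0.028, before the median was taken off, did not pass on that scale. Tfrc was at 1.01 and Slc40a1 at -0.60 on the same relative scale.

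**Figure D5:**
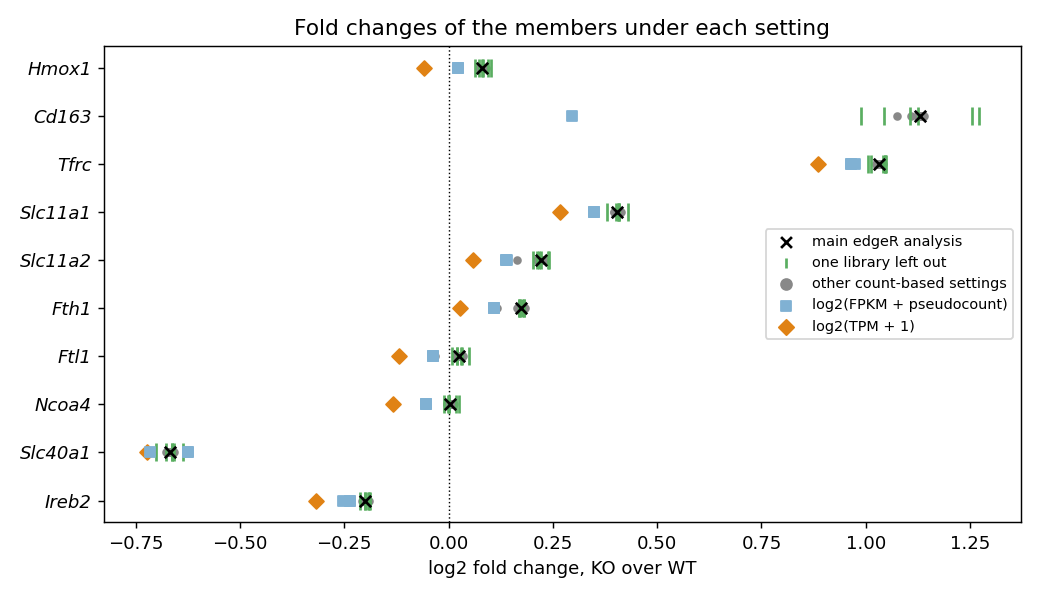
Log2 fold change of KO over WT (horizontal axis) for each gene in the main analysis (cross), with 1 library left out (green), with other count-based settings (grey), and on log2(FPKM + pseudocount) and log2(TPM + 1) scales. Tfrc stays between 0.89 and 1.05 and Slc40a1 between -0.73 and -0.62, whereas Hmox1, Ftl1 and Ncoa4 have settings on both sides of 0.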

How the data were processed

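PolyA-selected RNA of sorted alveolar macrophages was sequenced in 3 KO and 3 WT libraries, per the labels' protocols. The submitters' processing notes list HISAT, Bowtie2 and GRCm38.p6 without saying what each did. A counter, an annotation and strand use are not stated in the sources used here. A table deposited by the authors holds estimated counts, which are not whole (tolerance 1e-06) for 8.66% to 9.19% of genes and were rounded, with FPKM and TPM values. A normalised count signal deposited by the authors was not used. A deposited heat map table holds log2(FPKM + 1) values of the authors and served only to look up which members it lists.

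Counts were fitted over all genes with edgeR 4.0.16 (quasi-likelihood test, TMM, filterByExpr, group only; R 4.3.3); p-values were adjusted after Benjamini and Hochberg and called under 0.05, and 4007 genes were filtered out. SE is the log2 fold change over the square root of F. Limma 3.58.1 and DESeq2 1.42.0 gave alternatives. No set test was run. The members and lists were chosen with earlier results of these data known; at most 4 genes of each list, those of lowest p, are named, besides markers. Intervals cover only the spread between these libraries. Tested on simulated counts of 11715 genes for KO against WT, the fit recovered 42 of 50 genes changed 1.25-fold and all 50 changed 1.5-fold, and called 5 of 11515 unchanged genes.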

Additional observations from a re-analysis of the deposited data

How the results depend on the processing

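Tfrc, Cd163, Slc11a1 and Slc40a1 kept their direction and passed in every alternative that gave a value; Cd163 was 0.30 on log2(FPKM + 1) without a filter, a scale that shrinks low values, and under the low-value filter on FPKM and TPM it was not tested. Members passing numbered 4 when the biological coefficient of variation was set to 0.1 (3 higher, 1 lower) and 4 with glmTreat against 1.2-fold (3 higher, 1 lower). On log2(TPM + 1), 2 were higher and 4 lower. Over all genes, 4406 passed with the assumed value (2180 higher, 2226 lower), 3771 with glmTreat (1857 and 1914) and 2213 higher on log2(TPM + 1); pathway genes passing numbered 29 and 25. The settings that assume more spread or a minimum fold are stricter by construction; other causes were not tested.

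Slc11a2 (0.22), Fth1 (0.17), Ireb2 (-0.20) and Hmox1 (0.081) no longer passed under these 2 stricter settings. The same held for Aco1, Fbxl5, Alas1, Fech, Urod, Steap3, Nfe2l2, Cul3, Hspa9, Neo1 and Pcbp1 among the genes named from the lists. On log2(TPM + 1), Slc11a2 at 0.058 and Fth1 at 0.028 did not pass, and Hmox1 at -0.060, Ftl1 at -0.12, Ncoa4 at -0.13 and Pcbp1 at -0.042 turned negative. Hmox1 did not pass at 0.024 without library scaling or at 0.022 on the FPKM scales. The median log2 fold change of all genes was -0.056 without scaling and -0.12 on log2(TPM + 1). With the low-value filter it was -0.048 on log2(FPKM + 1) and -0.054 on log2(FPKM + 0.1). Ftl1 was -0.032 without scaling, -0.037 on the FPKM scales, and 0.025 with limma-voom, where it passed; leaving out 1 library gave 0.0093 to 0.050. Ncoa4 was -0.053 without scaling, -0.053 on log2(FPKM + 1) and -0.054 on log2(FPKM + 0.1), -0.0043 with upper quartile scaling and -0.0031 with a filter of 50 counts; leaving out 1 library gave -0.011 to 0.024. With 1 library left out, 8 to 9 members passed, beside 7755 to 7935 of all genes tested.

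Replicate numbers were shared by KO and WT labels, but deviations of same-numbered libraries correlated at -0.018, 0.028 and 0.019, and not every library correlated best with its own number, so they were not treated as pairs. The fit with the replicate block gave 8 members and 8321 genes.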
